A study of Homo sapiens with 2 samples.

Results

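Interleukin-6 family signaling was examined in TFK1 cells, a human cholangiocarcinoma cell line, through 10 genes of the route from the cytokine receptor to STAT3 and back to its inhibitors. The genes were taken by symbol and have 1 row each among the 56638 genes of the deposited tables: the receptor chains IL6R, IL6ST and OSMR, the kinases JAK1 and JAK2, the transcription factor STAT3, and the feedback inhibitors SOCS1, SOCS2, SOCS3 and CISH. To profile expression after knockdown of MBD2, a reader of methylated DNA, RNA was sequenced from cells with a shRNA against MBD2 (shMBD2) and from cells with a control shRNA (shNC), 1 library each. By the study's methods, knockdown cells were made with lentivirus and selected with an antibiotic, and both conditions carry a shRNA. The labels do not say which of the study's shRNAs against MBD2 was sequenced.

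In this pathway, a cytokine of the interleukin-6 family brings receptor chains together, usually with gp130 (the product of IL6ST) among them. The Janus kinases bound to the chains phosphorylate the receptor and STAT3, and STAT3 enters the nucleus, where SOCS3 is among its target genes. SOCS proteins and CISH bind the activated receptors or kinases and dampen the signal. In bile duct epithelium and cholangiocarcinoma, interleukin-6 and STAT3 are known as drivers of growth and survival.

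The counts summed to 14728814 in shMBD2 and 14467406 in shNC. MBD2 was at 365 and 1013 counts, a log2 fold change (log2FC, shMBD2 over shNC, after scaling for library size) of -1.48 with an interval from -1.66 to -1.31. The intervals are exact 95% binomial intervals for how each gene's reads divide between shMBD2 and shNC, and they cover counting error only. With a single library on each side, the differences have no replicate check, and no p-value is given. The biliary markers KRT7, KRT19, KRT8, KRT18, EPCAM, SOX9 and CDH1 all had reads, from 70 counts upwards in each library, with KRT19 at 119 and 70 counts and KRT7 at 11632 and 12975. No leukocyte, fibroblast, endothelial or hepatocyte marker examined exceeded 6 counts in either library, and PTPRC, the pan-leukocyte marker, had 0 and 1.

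All 10 genes were detected in both libraries, and none differed by more than 1 on the log2 scale beyond its counting error. OSMR, a receptor chain for oncostatin M, and SOCS3, the main brake on gp130 signaling, showed the largest higher values in shMBD2 among the 8 genes of the 10 with 100 counts or more, at 1.45 and 1.40 times the shNC level. STAT3 was at 1.19 times the shNC level and JAK1 at 1.10 times. IL6R, IL6ST and JAK2 were lower in shMBD2, at 89.5%, 95.9% and 81.3% of shNC. The interval of IL6R held 0, and whether that of IL6ST held 0 depended on the scaling. All 4 feedback inhibitors were higher in shMBD2, as were 48.9% of all genes with 10 or more reads in all. SOCS3 was the only inhibitor whose interval did not hold 0. In these bulk libraries, fewer cells expressing a gene and less RNA per cell cannot be told apart.

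The levels of the 10 genes, in TPM (the deposited unit that accounts for transcript length and library size), spanned more than 100 times in each library. JAK1 was the most abundant in both libraries, at 182 TPM in shMBD2 and 169 TPM in shNC. STAT3 followed at 134 and 115 TPM. In shMBD2 the next was OSMR at 129 TPM, whose counting interval overlapped that of STAT3, and then IL6ST at 96.5 TPM. In shNC this order was turned, with IL6ST at 103 TPM above OSMR at 90.5 TPM. SOCS3, JAK2, IL6R and SOCS2 then followed in that order in both libraries. In shNC the intervals of SOCS3 and JAK2 overlapped, from 14.5 to 18.6 TPM and from 11.9 to 14.6 TPM. In shMBD2 those of IL6R and SOCS2 did, from 6.34 to 8.18 TPM and from 5.73 to 7.99 TPM. SOCS1 and CISH were the least abundant, and their intervals overlapped in both libraries. The median over the 17545 genes tested, those with 10 or more reads in all, was 12.0 TPM in shMBD2 and 12.2 TPM in shNC, so JAK1, STAT3, OSMR, IL6ST and SOCS3 lay above it and IL6R, SOCS2, SOCS1 and CISH below it in both libraries. JAK2 lay above it in shNC, where the interval of JAK2 held the median, and below it in shMBD2.

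**Figure D1:**
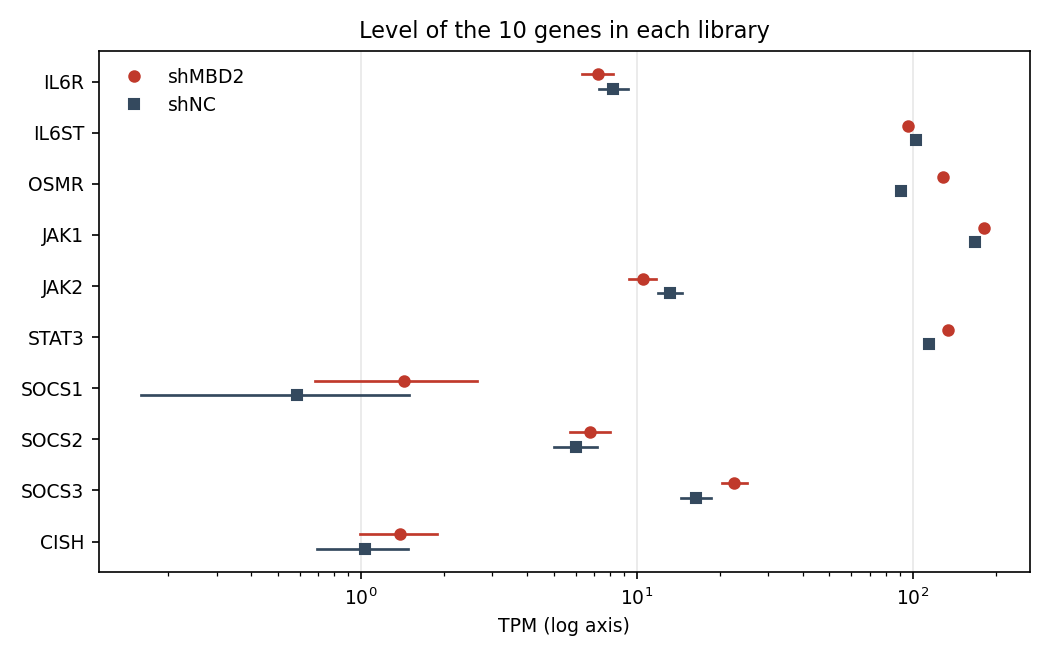
Level of each gene in TPM (log axis) in the shMBD2 library (circles) and the shNC library (squares), with 95% Poisson intervals that cover counting error only and are hidden by the symbol where they are narrow. JAK1, STAT3, OSMR and IL6ST lie above 90 TPM in both libraries, and SOCS1 and CISH below 2 TPM.

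Among the receptors, IL6R, the chain that gives specificity for interleukin-6, had 244 counts in shMBD2 and 271 in shNC, or 7.22 and 8.22 TPM. The log2FC of -0.16 was within counting error (interval -0.42 to 0.095). IL6ST, the shared signal-transducing chain gp130, had 4999 and 5179 counts, or 96.5 and 103 TPM, and a log2FC of -0.060 (interval -0.12 to -0.0036). IL6ST was thus 13.4 times as abundant as IL6R in shMBD2 and 12.5 times in shNC on the TPM scale. OSMR, which joins gp130 in the type II oncostatin M receptor, had 4071 counts in shMBD2 and 2794 in shNC, or 129 and 90.5 TPM. The log2FC was 0.53 (interval 0.46 to 0.60). Among well-covered genes, meaning 100 counts or more in the higher library, 9.68% had a larger difference in either direction than OSMR. The ratio of IL6ST to OSMR within a library, which does not depend on the scaling between libraries, was 0.751 in shMBD2 and 1.13 in shNC.

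OSMR lies on the plus strand of chromosome 5, and 1 promoter of it is in the RefSeq table (GRCh38.p14, chr5:38845762-38846061, plus strand), which runs from 250 bases before the transcription start to 50 after it. It is shown because OSMR had the largest difference among those 8 genes and because MBD2 binds methylated CpG. Capitals mark its 23 CpG dinucleotides:
OSMR: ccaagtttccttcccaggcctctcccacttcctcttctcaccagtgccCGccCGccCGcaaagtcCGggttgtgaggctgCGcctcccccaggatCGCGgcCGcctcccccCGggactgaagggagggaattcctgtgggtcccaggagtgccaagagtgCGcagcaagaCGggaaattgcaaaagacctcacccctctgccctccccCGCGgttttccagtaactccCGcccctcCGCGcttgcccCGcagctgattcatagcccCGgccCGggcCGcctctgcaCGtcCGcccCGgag
The median over all 35116 promoters of this table was 14 CpG, and 35.8% had at least as many as OSMR. Methylation was not measured in these libraries.

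Both kinases differed less than OSMR. JAK1, the kinase that gp130 signaling depends on most, had 5249 counts in shMBD2 and 4745 in shNC, a log2FC of 0.14 (interval 0.080 to 0.19). JAK2 had 318 and 389 counts, or 10.5 and 13.2 TPM, with a log2FC of -0.30 (interval -0.52 to -0.082). The opposite directions of the kinases placed JAK1 at 17.3 times the level of JAK2 in shMBD2 and at 12.8 times in shNC. STAT3, the factor activated by them, had 3871 counts in shMBD2 and 3237 in shNC, or 134 and 115 TPM, a log2FC of 0.25 (interval 0.18 to 0.32). Differences of this size were common, since 34.0% of well-covered genes differed more than STAT3 and 57.5% more than JAK1.

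Of the feedback inhibitors, SOCS3, a direct target of STAT3 that blocks gp130-bound kinases, had 353 counts in shMBD2 and 250 in shNC, or 22.6 and 16.4 TPM. The log2FC of SOCS3 was 0.49 (interval 0.25 to 0.73), and 11.5% of well-covered genes differed more. SOCS2, known as a brake on growth hormone receptor signaling, had 145 and 125 counts, or 6.79 and 6.01 TPM, with a log2FC of 0.20 (interval -0.15 to 0.56). CISH, an inhibitor induced by STAT5, had 40 and 29 counts, or 1.39 and 1.03 TPM. The log2FC of CISH was 0.45 and its interval, from -0.27 to 1.2, held 0. With log2 of TPM plus 1 it was 0.23. SOCS1, an inhibitor of the kinase activity of JAKs that is strongly induced by interferon, had 10 counts in shMBD2 and 4 in shNC, or 1.43 and 0.586 TPM. Its log2FC of 1.21 was the only value past 1, and its interval ran from -0.48 to 3.44, so a difference in SOCS1 was not detectable at this depth. Over the alternative settings, the value of SOCS1 ranged down to 0.61. SOCS1 passed the minimum of 10 counts only through shMBD2, where it was higher. SOCS3 made up 70.2% of the summed TPM of the 4 inhibitors in shMBD2 and 68.3% in shNC. The sum was 32.2 TPM in shMBD2 and 24.1 TPM in shNC, and the ratio of STAT3 to SOCS3 was 5.93 in shMBD2 and 7.0 in shNC.

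The promoters were searched for the STAT element TTCNNNGAA, which reads the same on both strands. The RefSeq table held 15 promoters of 9 of the 10 genes, and SOCS2 was not matched. CISH was the only gene with the element and had it 4 times in its 300 bases, while 7.66% of all promoters had it at least once and 7 of 35116 had it 4 times. The promoter of CISH (GRCh38.p14, chr3:50611725-50612024, minus strand) is shown for this feature, with the elements in capitals and their first bases at -241, -230, -129 and -112 from the transcription start:
CISH: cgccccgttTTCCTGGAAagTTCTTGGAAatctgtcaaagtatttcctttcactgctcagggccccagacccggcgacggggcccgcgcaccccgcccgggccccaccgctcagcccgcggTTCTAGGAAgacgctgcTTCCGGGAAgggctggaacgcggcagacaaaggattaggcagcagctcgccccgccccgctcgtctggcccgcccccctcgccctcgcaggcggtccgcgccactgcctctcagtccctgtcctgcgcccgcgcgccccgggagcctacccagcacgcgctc
None of the other 14 promoters held these letters, SOCS3 included, and this says only that they are not in these windows. All 15 promoters held CpG, from 9 at a start of JAK1 to 43 at another start of JAK1. The single promoter of SOCS1 held 33 CpG, as many as that of CISH.

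**Figure D2:**
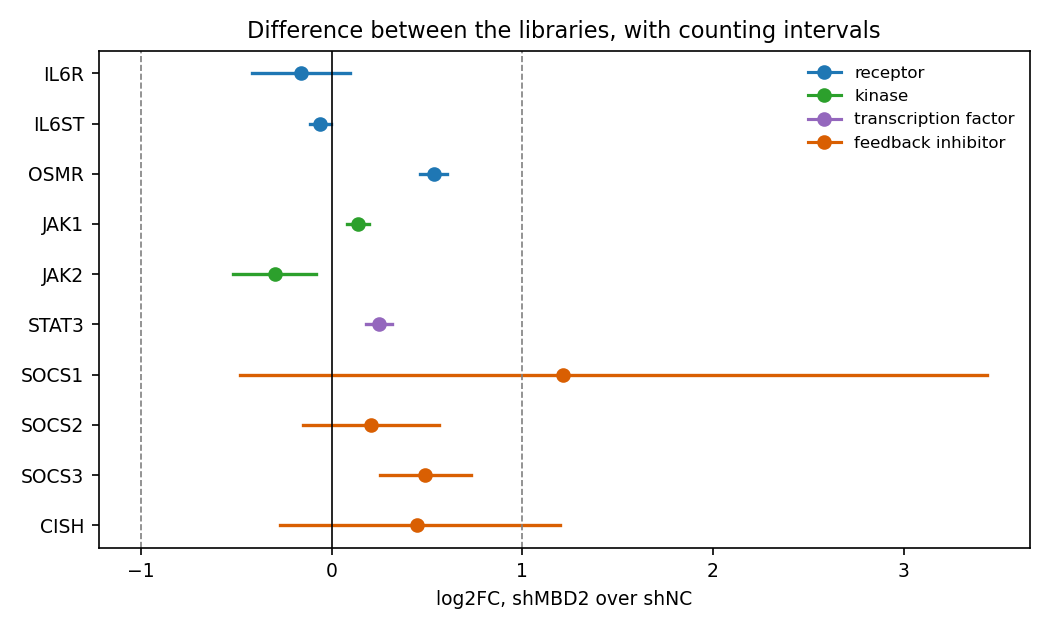
Log2FC of each gene, shMBD2 over shNC, with the 95% counting interval, colored by role; dashed lines mark -1 and 1. The intervals of 8 genes lie wholly between the dashed lines, and those of SOCS1 and CISH reach past 1.

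Of the 10 genes, 7 were higher and 3 lower in shMBD2, with a median log2FC of 0.23 beside -0.0082 over the 17545 genes tested. Over the 8 well-covered genes of the 10 this median was 0.17, beside 0.0035 over all well-covered genes. Among those 17545 genes, 48.9% were higher. A single gene of the 10, SOCS1, lay above a log2FC of 1, where 5.48% of all genes tested did, and 0 lay below -1, where 5.07% did. Of the 8 well-covered genes of the 10, 0 lay above 1 and 0 below -1, while 1.62% and 0.998% of all 10917 well-covered genes did (2.62% in either direction). OSMR alone lay above 0.5 and none below -0.5, where 5.61% and 5.33% of well-covered genes lay (10.9% in either direction). The intervals of OSMR, STAT3, JAK1 and SOCS3 lay above 0, which was so for 25.4% of well-covered genes, and those of IL6ST and JAK2 lay below 0, which was so for 23.8%. An interval without 0 was thus seen for 6 of the 8 and for 49.2% of well-covered genes. That of IL6ST ended at -0.0036, and scaling by DESeq2 size factors moved its log2FC from -0.060 to -0.051. This move was larger than the margin, so whether the interval of IL6ST holds 0 depends on the scaling. The median size of the log2FC was 0.23 over these 8 genes and 0.17 over all well-covered genes.

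**Figure D3:**
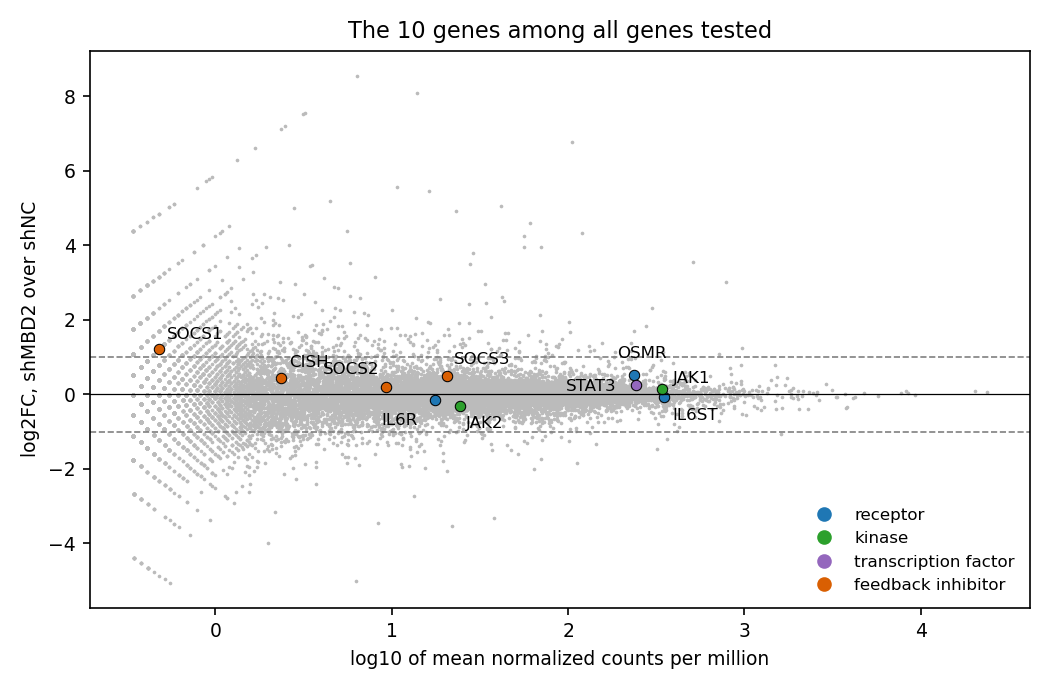
Log2FC of all 17545 genes tested (grey) against the log10 of their mean normalized CPM, with the 10 genes colored by role and dashed lines at -1 and 1. OSMR, JAK1, STAT3 and IL6ST lie where the grey cloud is narrow, and SOCS1 lies at the left, where genes with few reads spread past 1 and -1.

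Some of the 10 genes overlap others on the opposite strand, and whether strand was used in the counting is not given in the sources used here. Reads in the shared stretches may therefore not be told apart. The overlaps are of whole gene spans, and whether exons overlap was not examined. By the positions in the tables, SOCS1 lies wholly inside RMI2 on the other strand, which had 504 counts in shMBD2 and 610 in shNC. OSMR shares its 3' end with RICTOR, which had 1008 and 1443 counts and so went the other way. CISH shares its 5' end with MAPKAPK3 (639 and 522 counts), and SOCS2 shares its 5' end with SOCS2-AS1 (22 and 23 counts). JAK1 touches RAVER2 (388 and 506 counts). The pseudogenes IL6STP1, IL6RP1, SOCS2P1 and SOCS2P2 had no counts in either library. The other genes overlapping IL6R, JAK1 or JAK2 had at most 7 counts, and CTD-2031P19.4 within IL6ST had 21 and 35. The part of these overlaps in the values was not tested.

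Of 10 listed ligands of the family, 6 passed the minimum of 10 counts, IL6 and EBI3 only through shMBD2, where they were higher, so counts over these 6 describe them and no more. The 6 were higher in shMBD2, as were 48.9% of all genes tested. Their median log2FC was 1.15. It was 0.55 over the ligands with at least 1 count, where 2 lay below -1, and 0.35 over those with 100 counts or more. Above 1 lay 3 of the 6 (5.48% of all genes tested), and with 100 counts or more IL11 alone did. The intervals of IL6, IL11, EBI3 and LIF lay above 0 (19.7% of all genes tested). IL6 had 39 counts in shMBD2 and 0 in shNC. Against a floor of 3 counts in shNC the fold was 12.9, and the interval of the log2FC began at 3.32. IL11, which signals through gp130 and IL11RA, had 279 and 94 counts, a log2FC of 1.56 (interval 1.22 to 1.91). EBI3, the subunit that interleukin-27 shares with interleukin-35, had 95 and 8 counts and a log2FC of 3.48 (interval 2.52 to 4.81). LIF was the most abundant of the ligands, at 72.9 TPM in shMBD2 and 58.2 TPM in shNC, with a log2FC of 0.35 (interval 0.25 to 0.46). CLCF1 was at 252 and 238 counts (log2FC 0.073, interval -0.19 to 0.34). CNTF was at 29 and 17 counts (log2FC 0.74, interval -0.15 to 1.72). OSM, the ligand of OSMR, had 0 counts in shMBD2 and 3 in shNC, and IL27 and IL31 had none.

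Of the other receptors of the gp130 family, 6 of 8 had enough reads, 4 were higher and 2 lower, with a median log2FC of 0.19. LIFR, the partner of gp130 for LIF, had 434 and 436 counts, a log2FC of -0.015. LEPR, the leptin receptor, had 211 counts in shMBD2 and 361 in shNC, a log2FC of -0.78 (interval -1.04 to -0.53). IL31RA, the partner of OSMR for interleukin-31, was the only receptor of this list above 1, where 5.48% of all genes tested lay. It had 26 and 12 counts and a log2FC of 1.08 (interval 0.069 to 2.23). It was not past 1 with log2 of TPM plus 0.1 or plus 1 or with a prior of 2 counts, and it has under 100 counts. Of 19 other receptors that use JAKs, 14 had enough reads, of which 11 were higher and 3 lower, with a median of 0.20. This median was 0.070 with at least 1 count and 0.33 with at least 100 counts in the higher library. The intervals of IFNAR2, IFNGR1, IL4R and EPOR lay above 0 (19.7% of all genes tested), and those of the others held 0. IL7R (12 and 6 counts) passed the minimum of 10 counts only through shMBD2. Among all genes tested, 48.9% were higher. IFNGR1, the ligand-binding chain for interferon gamma, was the only one of the 14 above 1, where 5.48% of all genes tested lay. It had 2340 counts in shMBD2 and 604 in shNC, or 191 and 50.7 TPM. IFNGR1 thus had a log2FC of 1.94 (interval 1.82 to 2.08). Its partner IFNGR2 had 331 and 284 counts (log2FC 0.21), and IL13RA1 had 2247 and 2330 (log2FC -0.061). IL4R, with 698 and 355 counts, lay just under 1, at 0.97 (interval 0.78 to 1.15).

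The other JAKs and STATs, 8 genes in all, had a median log2FC of -0.083, with 3 higher and 5 lower. STAT5A was the only gene of them above 1, where 5.48% of all genes tested lay. It had 117 counts in shMBD2 and 23 in shNC, or 4.76 and 0.960 TPM, and a log2FC of 2.31 (interval 1.68 to 3.05). Its close paralog STAT5B, with which reads could be shared in the counting, was more abundant, at 34.3 and 40.5 TPM, and had a log2FC of -0.21. STAT6, the factor activated by interleukin-4, had 2001 and 2153 counts (log2FC -0.11), and the kinase TYK2 had 739 and 712 (log2FC 0.045).

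The other negative regulators, 18 genes among them SOCS4 to SOCS7, the PIAS proteins, phosphatases and the ubiquitin ligase partners of the SOCS box, had a median log2FC of 0.013, with 9 higher and 9 lower. SOCS6, the most abundant gene of the SOCS family here at 62.2 TPM in shMBD2 and 60.8 TPM in shNC, had a log2FC of 0.061, and SOCS4, SOCS5 and SOCS7 lay between -0.12 and 0.035. SH2B3, an adaptor that restrains JAK2, was the only gene of the list above 1, where 5.48% of all genes tested lay. It had 367 and 160 counts and a log2FC of 1.19 (interval 0.92 to 1.47). PTPN11, a phosphatase recruited to gp130, had 5203 and 4815 counts, a log2FC of 0.10.

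Known STAT3 target genes were spread in both directions. Of 35 listed, 29 had enough reads, 20 were higher (48.9% of all genes tested were) and 9 lower, with a median log2FC of 0.20. Above 1 lay 6 of them and below -1 lay 3, where 5.48% and 5.07% of all genes tested did. SAA1, SAA2 and LBP passed the minimum of 10 counts only through shMBD2, and the 6 became 2 with 100 counts or more. With at least 1 count, 9 lay above 1 and 6 below -1. LCN2, an antimicrobial iron-binding protein, had 1920 counts in shMBD2 and 122 in shNC, a log2FC of 3.96 (interval 3.70 to 4.24). CP, the copper carrier ceruloplasmin, had 2739 and 1103 counts (log2FC 1.3). The acute-phase genes SAA1 and SAA2, near-identical copies whose reads could be split, had 94 and 26 counts in shMBD2 and 0 in shNC. Against 3 counts in shNC the folds were 31.1 and 8.61, and the intervals of the log2FC began at 4.63 and 2.70. The other 2 genes above 1 were LBP with 23 and 9 counts and LRG1 with 31 and 11, named after their values were seen. The 3 genes below -1 were the neighboring fibrinogen chain genes: FGA had 628 and 1454 counts (log2FC -1.22), FGB 473 and 1569 (log2FC -1.74) and FGG 281 and 791 (log2FC -1.50). HIF1A was the most abundant gene of the list, with 15109 and 9147 counts and a log2FC of 0.72. CCND1, the cyclin that drives entry into S phase, had 3771 and 3256 counts, a log2FC of 0.20. Several of these genes, LCN2, SAA1 and IL6 included, are also known targets of NF-kB, and which factor acts on them was not tested.

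**Figure D4:**
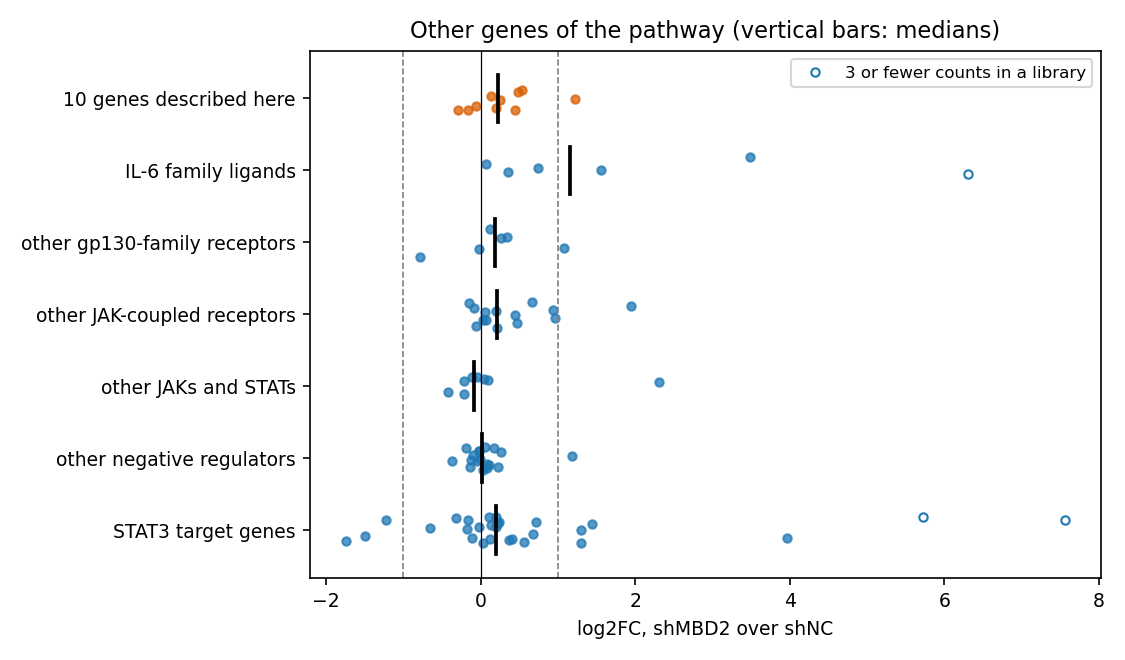
Log2FC, shMBD2 over shNC, of the 10 genes (top) and of the tested genes in 6 lists of other pathway genes, with vertical bars at each list's median and dashed lines at -1 and 1. Of the 10 genes, SOCS1 alone lies beyond a dashed line, and the negative regulators lie between them except SH2B3, while STAT3 target genes lie beyond both lines, with FGA, FGB and FGG below -1. Genes with few reads in shNC (SOCS1, IL6, EBI3, IL7R, SAA1, SAA2 and LBP) were plotted only because of their counts in shMBD2. Open circles are genes with 3 or fewer counts in a library, whose position depends on the prior count.

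Phosphorylation of STAT3, on which its activity depends, was not measured. The cause of the differences between the libraries was not tested.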

How the data were processed

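RNA sequencing of 1 shMBD2 and 1 shNC library of TFK1 cells was analyzed. The authors deposited whole-number read counts per gene and TPM per gene. The submitters' processing notes name fastp, HISAT2 2.1.0, featureCounts, DESeq 1.18.1 and GRCh38.p13, but 8 of the 10 genes start more than 5000 bases from their GENCODE 29 (GRCh38) position, so no build is given to the tables' positions.

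Of 63723 lines, 46 had no identifier and were dropped. Rows that repeated a symbol with the same counts in both libraries were kept once, which left 56638 rows, called genes here. Library sizes were scaled by TMM (edgeR 4.0.16, R 4.3.3). Genes with 10 or more counts in all were tested, and log2FC was computed after adding a prior of 0.5 counts, adjusted to each library's size. Intervals of log2FC are Clopper-Pearson and those of TPM are Poisson, both exact at 95% (scipy 1.17.1). A fold against 3 counts or fewer was computed against 3 counts. On simulated counts for this comparison, 100% of 200 genes changed 4-fold were recovered past 1, of 17919 genes in that step. The changed genes were drawn only from genes with more reads than SOCS1 or CISH had, and only counting noise was simulated. The result therefore does not cover genes with few reads, smaller differences or variation between cultures.

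The 10 genes, the 6 lists of 98 pathway genes and the alternatives were chosen with earlier results of these data known. Named were the 10 genes, overlapping genes, ligands with at least 10 counts, and in each list the 2 genes with most counts and those past 1 or -1 with at least 100 counts in the higher library; other members of the lists were named for comparison after their values were seen, and 1 gene that the rule names is not reported here. Promoter sequences are from RefSeq (GRCh38.p14). Protein sequences were not used here. Tried as alternatives were scaling by upper quartile, by total counts or by DESeq2 1.42.0 size factors, log2 of TPM plus 0.1 or 1, prior counts of 2 or 0.1, and filters of at least 1 count or at least 100 counts.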

Additional observations from a re-analysis of the deposited data

How the results depend on the processing

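Each of the 10 genes kept its direction under the 7 alternative scalings, pseudocounts and priors, and no value left its counting interval. OSMR lay between 0.50 and 0.54, SOCS3 between 0.44 and 0.50, STAT3 between 0.22 and 0.26, JAK1 between 0.11 and 0.15, JAK2 between -0.32 and -0.29, IL6ST between -0.088 and -0.051, IL6R between -0.19 and -0.15 and SOCS2 between 0.15 and 0.21. CISH lay between 0.23, with log2 of TPM plus 1, and 0.46. SOCS1 lay between 0.61 and 1.29, so the count of 1 gene above 1 became 0 with log2 of TPM plus 1, 0 with a prior of 2 counts and 0 with at least 100 counts in the higher library. The median of the 10 genes moved from 0.23 to 0.17 with at least 100 counts, where 8 of them were kept. The median of all genes tested stayed between -0.033 and 0.0035. Among all genes, 961 lay above 1 and 890 below -1, against 374 and 340 with log2 of TPM plus 1, 4523 and 4303 with at least 1 count, and 177 and 109 with at least 100 counts. The median of the ligands moved from 1.15 to 0.35 with at least 100 counts and to 0.55 with at least 1 count, by construction of which genes were kept. With at least 100 counts, 2 STAT3 target genes lay above 1 in place of 6 and 1 ligand in place of 3. IL31RA no longer lay above 1 with log2 of TPM plus 0.1 or 1 or with a prior of 2 counts, and was not kept with at least 100 counts. No paired analysis was possible because shMBD2 and shNC are single libraries. SOCS1 and CISH are limited by depth, and variation between cultures was not measured.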
